A study of Rattus norvegicus with 8 samples.

Results

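The interleukin 1 system covers the cytokines interleukin 1 alpha and beta, their natural antagonist, their receptors, the related cytokine interleukin 18 and the protease that matures interleukin 1 beta and interleukin 18. Its members were the probe sets with exactly 1 gene symbol among 9 listed genes, with the highest-mean probe set taken per gene. Of these 9 genes 8 were measured, out of 14511 named genes: Il1a, Il1b, Il1rn, Il18, Il1r1, Il1r2, Il1rap and Casp1, each with 1 probe set. Nlrp3, the sensor of an inflammasome that activates caspase 1, was not analysed here. The data came from isolated livers of male Wistar rats aged 6 to 10 weeks. They were perfused with Krebs-Henseleit buffer, a salt solution that stands in for plasma, at normoosmotic (305 mosm/L, n = 4) or hypoosmotic strength (225 mosm/L, n = 4), and dilute buffer makes hepatocytes swell. Each array is from 180 min of perfusion, so both groups share the isolation and perfusion of the liver, and no unperfused liver was analysed here. RNA of homogenised whole liver was hybridised to Affymetrix whole-transcript arrays, and all values below are deposited log2 expression values.

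As background, interleukin 1 alpha and beta bind the same receptor, Il1r1, which signals together with the accessory protein Il1rap through Myd88 and the IRAK kinases to NF-kB and AP-1. Il1rn blocks that receptor without activating it, and Il1r2 is a decoy that binds ligand but does not signal. Interleukin 1 beta and interleukin 18 are made as inactive precursors that caspase 1 cleaves, whereas the precursor of interleukin 1 alpha is already active. In liver, resident macrophages (Kupffer cells) are a main source of interleukin 1, and hepatocytes respond to it with acute phase proteins.

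The array medians lay between 3.92 and 4.05. Hypoosmotic replicate 3 stood apart on the second principal component, at 28.5 against -15.3 to 6.60 for the other 7 arrays, so calls on members and listed genes that change without it are given both ways. Whether each array stands for its own animal is not stated in the labels. The p-values therefore cover only the spread among these arrays, and that spread may be technical. A level of 3.37, the 95th percentile of 53 odorant receptor genes, was taken as near background. Hepatocyte markers were bright (Alb at 13.11 ± 0.04 and 13.05 ± 0.07, Apoa1 at 11.80 ± 0.19 and 11.72 ± 0.10, normoosmotic and hypoosmotic, SD, n = 4 each). Of the 10 hepatocyte markers 0 passed the test used below (limma, adjusted p under 0.05), and 1 had an unadjusted p under 0.05 (20.7% of all genes).

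The 2 agonist genes were the members that fell in hypoosmotic livers, and the antagonist, the receptor genes, Il18 and Casp1 did not pass the test. Of the 8 members 2 fell and 0 rose (limma, Benjamini-Hochberg adjusted p under 0.05 over all genes), with a median change of -0.06 on the log2 scale. Over all genes tested, 4.62% fell, 2.45% rose and 7.07% changed in either direction, with a median change of 0.02 and 7787 of 14511 changes above 0, and 20.7% had an unadjusted p under 0.05. Falls made up 65.3% of all calls, 59.5% with the replicate number as a block and 75.5% after median centring of the arrays. These were the lowest and the highest share among the alternative fits described below, and both called the same 2 members.

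Il1a, which encodes interleukin 1 alpha, had log2 values of 10.49, 10.28, 10.27 and 10.61 in normoosmotic replicates 1 to 4. In hypoosmotic replicates 1 to 4 the values were 9.64, 9.75, 9.37 and 9.11. All 4 hypoosmotic arrays lay below all 4 normoosmotic ones, and Il1a was the single member whose groups did not overlap, which was true of 13.5% of all genes. The log2 change was -0.94 ± 0.15 (SE), 1.93-fold lower, with an adjusted p of 0.00660 (limma). The call held whichever of the 8 arrays was left out, with adjusted p-values from 0.0102 to 0.0232. In whole-liver RNA, fewer cells of a type and less RNA per cell cannot be told apart, here and for every gene below.

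Il1b, which encodes interleukin 1 beta, fell too, with a wider spread between arrays than Il1a. Its log2 values were 10.38, 9.79, 9.42 and 10.40 in normoosmotic replicates 1 to 4, and 9.03, 9.47, 7.60 and 8.05 in hypoosmotic replicates 1 to 4. The groups touched: hypoosmotic replicate 2 lay just above normoosmotic replicate 3, while hypoosmotic replicates 3 and 4 lay far below every other array. The log2 change was -1.46 ± 0.37 (SE), 2.75-fold lower, with an adjusted p of 0.0397 (limma) and a 95% interval from -2.28 to -0.64. This call was close to the threshold. Of the 8 fits without 1 array it held in 2, those without hypoosmotic replicate 1 or 2, and the adjusted p ranged from 0.0222 to 0.110, highest without normoosmotic replicate 4. Without hypoosmotic replicate 3 it fell short (-1.15, adjusted p = 0.0671). With an intensity trend and robust variances the adjusted p was 0.0849, and the two-sided exact permutation test over the 8 arrays gave an unadjusted p of 0.0571, where 0.0286 is the smallest possible.

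**Figure D1:**
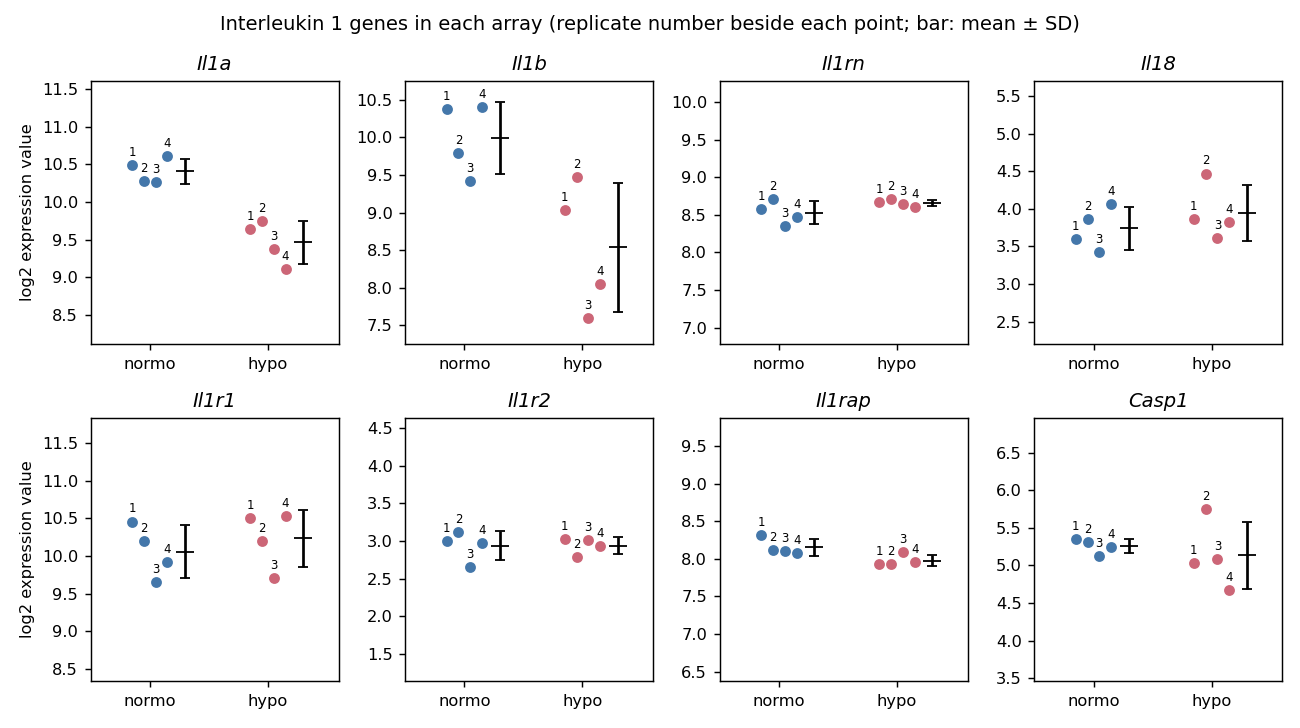
Deposited log2 expression values (vertical axes, the same span in every panel) of the 8 interleukin 1 genes in normoosmotic (blue) and hypoosmotic (red) arrays, each point numbered by its replicate, with the mean ± SD of each group as a black bar. Il1a is fully separated, Il1b falls to 7.60 and 8.05 in hypoosmotic replicates 3 and 4, and the other 6 genes overlap.

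Il1rn, which encodes the interleukin 1 receptor antagonist, had values of 8.58, 8.71, 8.35 and 8.47 in normoosmotic arrays. In hypoosmotic arrays the values were 8.67, 8.71, 8.65 and 8.61. The hypoosmotic values lay within the normoosmotic range. The change was 0.13 ± 0.10 (SE, adjusted p = 0.559, limma), and its 95% interval, -0.10 to 0.36, does not reach the size of the fall of Il1a.

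Il1a and Il1b were described against the antagonist within each array, since such a difference cancels anything that scales a whole array. Levels of different probe sets cannot be compared, so these differences are given relative to their normoosmotic mean. For Il1a minus Il1rn the normoosmotic arrays spread from -0.32 to 0.26 and the hypoosmotic ones from -1.38 to -0.84, a mean shift of -1.08 on the log2 scale. For Il1b minus Il1rn the ranges were -0.40 to 0.46 and -2.52 to -0.71, a mean shift of -1.59. Both differences were lower in all 4 hypoosmotic arrays than in any normoosmotic array. Il1a alone was already separated in this way, while Il1b alone was not. The share of gene pairs without overlap is not given here, and 13.5% of single genes did not overlap. Il1b minus Il1a had a mean shift of -0.52 with overlapping groups, from -0.44 to 0.30 and from -1.36 to 0.14, and the most negative values were those of hypoosmotic replicates 3 and 4. These shifts describe the arrays and carry no test.

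**Figure D2:**
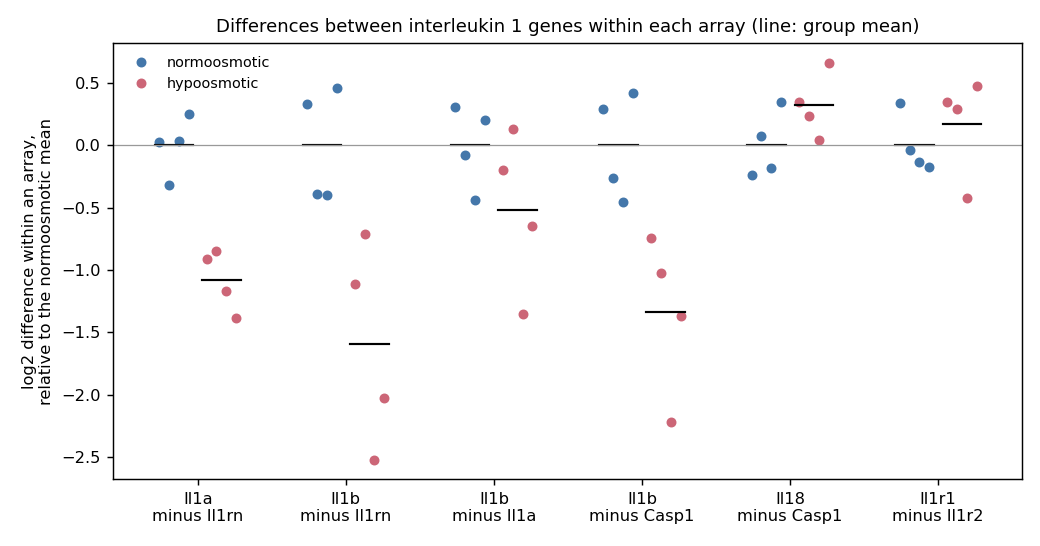
Log2 difference between the values of 2 interleukin 1 genes in the same array (vertical axis), relative to the normoosmotic mean of that difference, for 6 pairs of genes, with normoosmotic arrays in blue, hypoosmotic arrays in red and a line at each group mean. The agonist genes against Il1rn, and Il1b against Casp1, are separated by group, with mean shifts of -1.08, -1.59 and -1.34, while Il1b against Il1a, Il18 against Casp1 and Il1r1 against Il1r2 overlap.

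The sequences before the start sites of the agonist genes and the antagonist gene are shown because the agonists fell and the antagonist did not. They are the 250 bases upstream of the RefSeq gene start on assembly GRCr8, 5′ to 3′ on the gene's strand, at chr3:136990018-136990267 (minus strand) for Il1a, chr3:137036582-137036831 (minus strand) for Il1b and chr3:27520072-27520321 (plus strand) for Il1rn. Capitals mark matches, on either strand, to TATAAA, to the AP-1 motif TGANTCA, to GAGGAA (a core read by PU.1, a macrophage factor), to TGGAAA (a core read by NFAT proteins) and to the kappa B motif of NF-kB. The kappa B motif was searched as GGGRNNYYCC, where R is A or G, Y is C or T and N is any base.
Il1a: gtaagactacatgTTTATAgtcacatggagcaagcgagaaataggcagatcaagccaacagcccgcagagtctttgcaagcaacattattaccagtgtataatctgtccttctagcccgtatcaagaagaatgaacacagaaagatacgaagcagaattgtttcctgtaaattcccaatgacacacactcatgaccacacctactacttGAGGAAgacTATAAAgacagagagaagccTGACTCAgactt
Il1b: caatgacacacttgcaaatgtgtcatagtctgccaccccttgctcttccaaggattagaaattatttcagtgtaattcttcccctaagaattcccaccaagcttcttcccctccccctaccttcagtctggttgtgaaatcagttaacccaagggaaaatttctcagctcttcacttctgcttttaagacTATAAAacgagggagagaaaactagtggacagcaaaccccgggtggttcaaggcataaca
Il1rn: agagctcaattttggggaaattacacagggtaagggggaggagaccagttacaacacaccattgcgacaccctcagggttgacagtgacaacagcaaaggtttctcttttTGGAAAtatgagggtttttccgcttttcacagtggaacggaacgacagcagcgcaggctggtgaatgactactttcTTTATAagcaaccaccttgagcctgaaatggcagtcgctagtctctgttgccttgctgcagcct

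Il1a and Il1b are next to each other among the protein-coding genes of chromosome 3 and are read from the same strand. Both windows held TATAAA on the gene's strand, from -32 to -27 in Il1a and from -60 to -55 in Il1b, counted from the gene start. Il1a also had GAGGAA from -41 to -36 and the AP-1 motif, which reads the same on both strands, from -12 to -6. TATAAA stood on the opposite strand in Il1a, from -237 to -232, and in Il1rn, from -64 to -59. The Il1rn window also had TGGAAA from -140 to -135. None of these 3 windows held the kappa B motif in the form searched, and variants of it were not searched. Of 33469 RefSeq windows of this length, 12.9% held TATAAA, 6.34% the AP-1 motif, 23.3% GAGGAA, 19.7% TGGAAA and 6.33% the kappa B motif. Such matches describe the letters of a window and are not binding sites.

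Neither Il18 nor Casp1 passed. Il18 had values of 3.60, 3.87, 3.43 and 4.07 in normoosmotic and 3.86, 4.47, 3.61 and 3.83 in hypoosmotic arrays, not far above the near-background level. The groups overlapped almost fully, and the change was 0.20 ± 0.19 (SE, adjusted p = 0.649, limma). Casp1, the protease that cleaves the precursors of interleukin 1 beta and interleukin 18, had values of 5.35, 5.31, 5.13 and 5.24 in normoosmotic and 5.03, 5.75, 5.08 and 4.68 in hypoosmotic arrays. The hypoosmotic arrays lay on both sides of the normoosmotic ones, with an SD of 0.45 against 0.10. The change of Casp1 was -0.12 ± 0.19 (adjusted p = 0.802, 95% interval -0.54 to 0.29), and without hypoosmotic replicate 4 it was 0.03. Il1b minus Casp1 was lower in all 4 hypoosmotic arrays than in any normoosmotic array, with a mean shift of -1.34. Il1b alone overlapped, and the share of gene pairs without overlap is not given here. Il18 minus Casp1 had a mean shift of 0.32 and overlapping groups.

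The receptor genes did not pass either. Il1r1, the signalling receptor, had values of 10.46, 10.20, 9.65 and 9.92 in normoosmotic and 10.50, 10.20, 9.71 and 10.53 in hypoosmotic arrays, so that both groups spanned nearly the same range. Its change was 0.18 ± 0.21 (SE, adjusted p = 0.723, 95% interval -0.28 to 0.64). Il1rap, the accessory chain of the receptor, had values of 8.32, 8.11, 8.10 and 8.08 in normoosmotic and 7.93, 7.93, 8.09 and 7.95 in hypoosmotic arrays. Its groups overlapped through hypoosmotic replicate 3 alone, and its change was -0.18 ± 0.10 (adjusted p = 0.361, 95% interval -0.40 to 0.04). Il1r2, the decoy receptor, lay below the near-background level in all 8 arrays, from 2.66 to 3.12, so a change in it could not be measured.

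**Figure D3:**
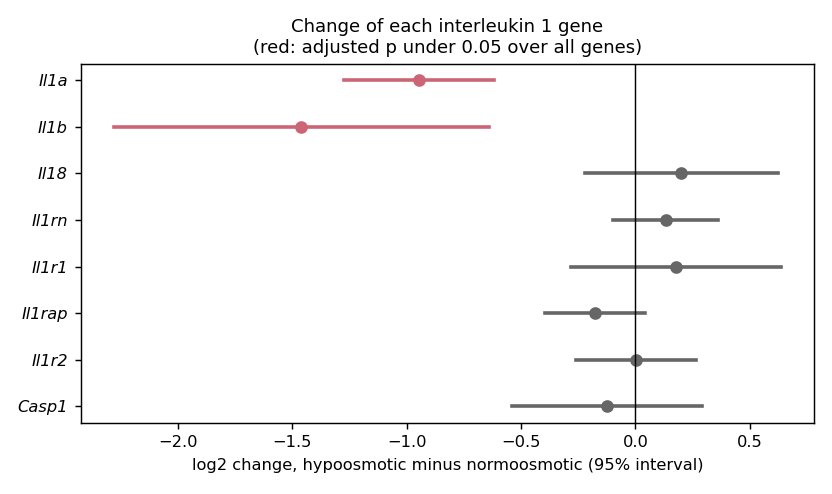
Log2 change of each interleukin 1 gene, hypoosmotic minus normoosmotic (horizontal axis), with its 95% interval from limma, in red where the adjusted p over all genes was under 0.05. The intervals of Il1a (-1.27 to -0.62) and Il1b (-2.28 to -0.64) lie below 0, and those of the other 6 genes include 0.

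The rest of the pathway was read from lists of genes. Of 12 measured relatives among the ligands, receptors and binding proteins of the interleukin 1 family, 0 passed (limma), with 3 at an unadjusted p under 0.05, near the 20.7% of all genes, and 7 of the 12 lay near background. The 3 were Il1rl1, the receptor gene for the product of Il33, at -0.98 ± 0.31 (SE, adjusted p = 0.0899), Il18bp, which neutralises interleukin 18, at 0.86 ± 0.31 (0.129), and Il33 itself at 0.51 ± 0.22 (0.213). The hypoosmotic mean of Il1rl1, 3.23, lay under the near-background level, and its highest normoosmotic value was 5.31, in replicate 3. Il18bp had values of 6.66, 6.99, 5.84 and 6.54 in normoosmotic and 7.79, 7.97, 6.57 and 7.14 in hypoosmotic arrays. Only hypoosmotic replicate 3 of Il18bp lay inside the normoosmotic range, and without that array it passed (1.13, adjusted p = 0.0348). Each of the other two also passed in 1 of the 8 fits without 1 array, Il1rl1 without normoosmotic replicate 1 (-1.24, adjusted p = 0.0414) and Il33 without hypoosmotic replicate 4 (0.73, 0.0286).

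Of 21 measured genes that carry the signal from the receptor to NF-kB, 2 fell and 0 rose (4.62% and 2.45% of all genes). An unadjusted p under 0.05 was found for 6 of the 21 (20.7% of all genes). The median change was -0.16, and -0.04 without hypoosmotic replicate 3. Nfkb1, whose product is the p105 precursor of the p50 subunit of NF-kB, had values from 10.03 to 10.12 in normoosmotic arrays. In hypoosmotic arrays it read 9.64, 9.59, 9.06 and 9.66, below every normoosmotic array and lowest in replicate 3. Its change was -0.57 ± 0.14 (SE, adjusted p = 0.0311), and it passed in 3 of the 8 fits without 1 array (0.0293 to 0.0789, highest without normoosmotic replicate 3). Chuk, a kinase of the complex that releases NF-kB, changed by -0.48 ± 0.12 (adjusted p = 0.0356) and passed in 1 of those 8 fits (0.0180 to 0.101, highest without normoosmotic replicate 3). Chuk did not pass without hypoosmotic replicate 3 (-0.50, adjusted p = 0.0517), with a further quantile normalization (0.0719) or with the replicate number as a block (0.0541). The next smallest p-values were those of Tab2 (-0.34 ± 0.10, adjusted p = 0.0715) and Map3k7 (-0.35 ± 0.11, 0.0841), which form the kinase complex upstream of it, and of Irak3 (-0.68 ± 0.22, 0.0902), a brake on this pathway. In each of these 3 genes, named for their small p, all hypoosmotic arrays lay below all normoosmotic ones. Groups that did not overlap, in either direction, were found in 13.5% of all genes. Nfkbie, which encodes an inhibitor of NF-kB and was named after its values were seen, went the other way, at 0.59 ± 0.28 (SE, adjusted p = 0.254, limma). It passed as higher without hypoosmotic replicate 3 (0.86, adjusted p = 0.0457) and with the replicate block (0.0352).

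Of 17 measured genes of inflammasomes and of cytokine processing and release, 1 rose and 0 fell (2.45% and 4.62% of all genes). An unadjusted p under 0.05 was found for 5 of the 17 (20.7% of all genes), and 4 lay near background. Of the 17 changes 13 were above 0, with a median of 0.23, and 0.12 without hypoosmotic replicate 2. The gene that rose was Aim2, a sensor of cytosolic DNA, at 0.48 ± 0.11 (SE, adjusted p = 0.0241), but its levels, 2.26 ± 0.13 and 2.74 ± 0.11 (SD, n = 4 each), were both near background. It passed in 3 of the 8 fits without 1 array (0.0230 to 0.0670, highest without normoosmotic replicate 1). Gsdmd, which forms the membrane pore through which mature interleukin 1 beta leaves cells, had values of 4.84, 4.92, 5.18 and 5.20 in normoosmotic and 5.31, 5.56, 5.24 and 5.59 in hypoosmotic arrays. Its groups did not overlap (13.5% of all genes), but the change of 0.39 ± 0.13 did not pass (adjusted p = 0.0948). Capn2, a calpain subunit (0.28 ± 0.11, 0.157), and Ninj1, which ruptures the membrane of dying cells (0.26 ± 0.10, 0.180), did not pass either.

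Of 24 genes known to be induced by interleukin 1, all of them measured, 2 fell and 0 rose (4.62% and 2.45% of all genes). An unadjusted p under 0.05 was found for 9 of the 24 (20.7% of all genes), and 5 of the 24 changes were above 0. The median change was -0.28, and -0.12 without hypoosmotic replicate 3, so its size rested in part on that array. Csf2, which encodes the cytokine GM-CSF, had values of 7.89, 7.90, 8.58 and 8.36 in normoosmotic and 7.15, 7.16, 6.76 and 6.69 in hypoosmotic arrays. The groups were far apart, the change was -1.24 ± 0.18 (SE, adjusted p = 0.00457, limma), and it held in each of the 8 fits without 1 array (0.00919 to 0.0193). Cxcl2, a chemokine that draws neutrophils, had values of 10.19, 10.55, 10.22 and 10.17 against 9.19, 10.10, 8.59 and 9.44. Its groups did not overlap (13.5% of all genes), and hypoosmotic replicate 3 was again the lowest. The change of Cxcl2 was -0.95 ± 0.25 (adjusted p = 0.0470), which passed in 1 of those 8 fits (0.0139 to 0.118, highest without normoosmotic replicate 2), and not with an intensity trend and robust variances (0.0595). Without hypoosmotic replicate 3 it was -0.71 (adjusted p = 0.0628). Icam1, an adhesion molecule for leukocytes, changed by -0.49 ± 0.17 (adjusted p = 0.123) and Cxcl1, a chemokine related to Cxcl2, by -0.36 ± 0.14 (0.149). Cxcl3 (-0.42 ± 0.16, 0.148) was near background.

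Of 13 measured acute phase genes of hepatocytes 0 passed (limma), with 2 at an unadjusted p under 0.05 (20.7% of all genes), and the median change was 0.01. These 2 were Cp, ceruloplasmin, at -0.43 ± 0.12 (SE, adjusted p = 0.0558), and A2m, a protease inhibitor, at 0.83 ± 0.32 (0.162). C3, the central complement protein, was 12.09 ± 0.23 and 12.22 ± 0.07 (SD, n = 4 each).

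**Figure D4:**
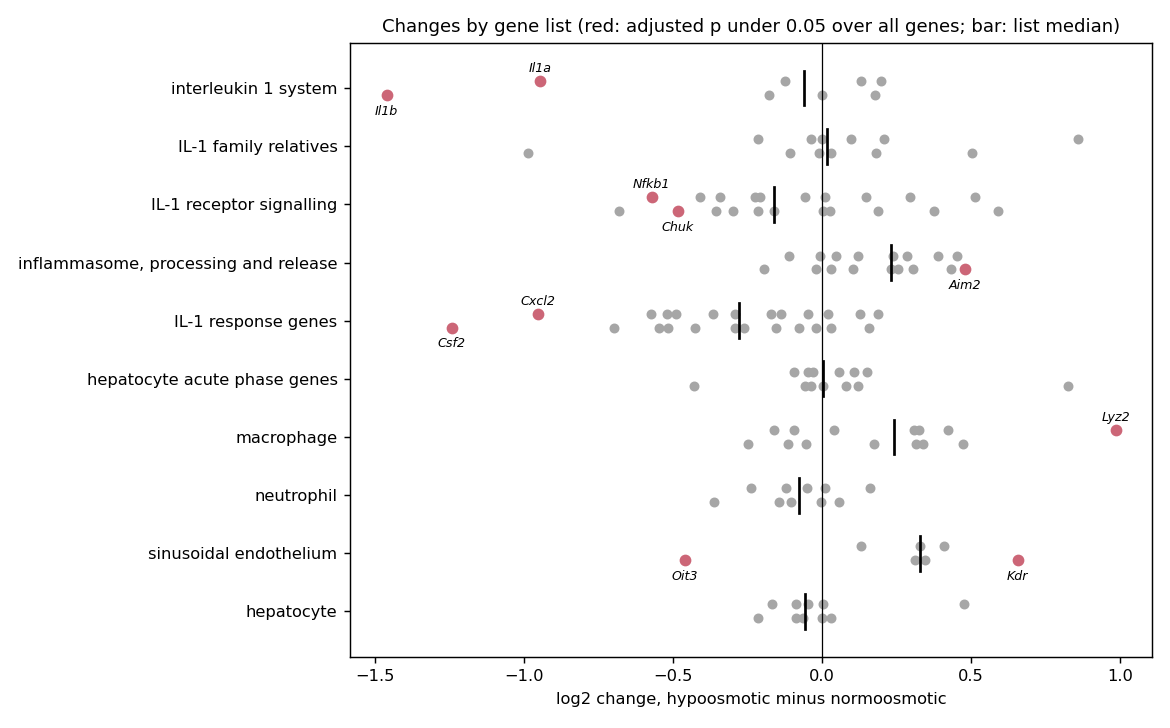
Log2 change, hypoosmotic minus normoosmotic (horizontal axis), of every measured gene of 10 lists, 1 point a gene, in red and named where the adjusted p over all genes was under 0.05, with a bar at each list's median. Il1b, Csf2, Cxcl2 and Il1a lie farthest to the left among the genes that passed, and the macrophage list has a median of 0.24 with Lyz2 at 0.99.

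Markers of cells that could supply these transcripts were read beside them. Of 14 measured macrophage markers 1 rose and 0 fell (2.45% and 4.62% of all genes), and 2 had an unadjusted p under 0.05 (20.7% of all genes). The median change was 0.24, and 0.05 without hypoosmotic replicate 2, so its size rested largely on that array. The mean log2 level of the list spread from 6.20 to 6.60 over normoosmotic and from 6.37 to 7.03 over hypoosmotic arrays, and 0 of the 14 lay near background. The macrophage markers Cd68 (0.04 ± 0.11 SE, adjusted p = 0.890) and Cd163 (-0.25 ± 0.16, 0.446) did not pass, while Lyz2, a lysozyme of myeloid cells, went from 5.58 ± 0.27 to 6.57 ± 0.17 (SD, n = 4 each, adjusted p = 0.00507). The list was lowest among hypoosmotic arrays in replicate 4 (6.37) and highest in replicate 2 (7.03), and these were also the lowest and the highest hypoosmotic arrays for Il1a. Il1b was also highest in replicate 2, but it was lowest in replicate 3, where the list was second highest (6.66). Among normoosmotic arrays the list was highest in replicate 1 (6.60) and lowest in replicate 3 (6.20). There Il1a was highest in replicate 4 (10.61) and lowest in replicate 3 (10.27), and so was Il1b (10.40 and 9.42). The part of macrophage number in the values of Il1a and Il1b was not tested.

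Of 10 measured neutrophil markers 0 passed (limma), with 0 at an unadjusted p under 0.05 (7.07% and 20.7% of all genes). Near background were 8 of the 10, among them S100a8 and S100a9. The mean level of the 10 spread from 3.07 to 3.15 in normoosmotic and from 2.91 to 3.12 in hypoosmotic arrays. Of 7 measured lymphocyte markers 0 passed, with 0 at an unadjusted p under 0.05 (7.07% and 20.7% of all genes). Near background were 5 of the 7, including Cd3e and Cd3d. Sinusoidal endothelium had 7 measured markers, of which 6 had changes above 0, with a median of 0.33. Of these 7, 1 rose and 1 fell (2.45% and 4.62% of all genes). Among these markers 4 had an unadjusted p under 0.05 (20.7% of all genes). Kdr, a VEGF receptor, rose (0.66 ± 0.15 SE, adjusted p = 0.0280) and Oit3 fell (-0.46 ± 0.11, 0.0294), and they passed in 2 and in 1 of the 8 fits without 1 array. Without hypoosmotic replicate 3 the change of Kdr was 0.55 (adjusted p = 0.0516). Pecam1, an adhesion molecule of endothelium also named after its values were seen, was higher in every hypoosmotic array than in any normoosmotic one but did not pass (0.35 ± 0.11, 0.0792). Pecam1 passed with further quantile normalization (0.38, adjusted p = 0.0441, limma) and without hypoosmotic replicate 4 (0.41, 0.0463). Groups without overlap, in either direction, were found in 13.5% of all genes. The mean level of the list spread from 6.76 to 7.02 over normoosmotic and from 6.91 to 7.36 over hypoosmotic arrays. None of the 8 stellate cell markers passed (limma), with 2 at an unadjusted p under 0.05 (20.7% of all genes), and Des and Lrat had changes of 0.18 ± 0.12 and 0.25 ± 0.23. None of the 5 measured cholangiocyte markers passed, with 0 at an unadjusted p under 0.05 (7.07% and 20.7% of all genes). Krt19 and Krt7 had changes of -0.04 ± 0.12 and 0.03 ± 0.17.

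The genes whose array-to-array pattern was most like that of each agonist were found by Pearson correlation of deviations from the group means over the 8 arrays, among 9904 other genes above near background. For Il1b the 5 highest were Iqgap1 (r = 0.985), Reep5 (0.985), Il6 (0.966), Cd2ap (0.966) and Hcar2 (0.949). Il6, an interleukin 1 response gene, had values of 8.67, 7.98, 7.50 and 8.28 in normoosmotic and 8.15, 8.69, 6.77 and 6.76 in hypoosmotic arrays, so that it too was lowest in hypoosmotic replicates 3 and 4. Its groups overlapped, and its change of -0.52 ± 0.41 (SE) did not pass (adjusted p = 0.570, limma). Hcar2, a receptor for hydroxybutyrate and nicotinic acid, fell from 8.12 ± 0.22 to 6.91 ± 0.39 (SD, n = 4 each, adjusted p = 0.0060). For Il1a the 5 highest were Mrpl2 (0.984), Eef1akmt2 (0.981), Serhl2 (0.973), Taf6l (0.973) and B3gnt7 (0.971), and of these Taf6l, a subunit of histone acetyltransferase complexes, fell (-0.71 ± 0.13 SE, adjusted p = 0.00998). These correlations are the highest of many over few arrays and describe the arrays only.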

How the data were processed

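The deposited file holds log2 expression, as the authors computed it, for 27596 probe sets on 8 arrays. Expression Console, Transcriptome Analysis Console 4.0 and RMA are named, without role or order, per the submitters' processing notes. RMA commonly equalises array distributions, which would hide a shift common to most genes. The genome build of the probe sets is not given in the sources used here.

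Names came from GEO's platform annotation and a RefSeq gene table (GRCr8): 15316 had 1 symbol, 317 several and 11963 were unnamed. Of the 15316, 15285 were matched by gene identifier, 6 by accession and 25 kept as annotated. The highest-mean probe set was kept for each of 14511 genes. The comparison of groups used limma (version 3.58.1, under R version 4.3.3; lmFit, then eBayes, with group as the only term), two-sided, with Benjamini-Hochberg adjustment over all genes and a threshold of 0.05. The fit was tested on simulated data. Precision is limited by having 4 arrays in each group. Intervals are limma's 95% intervals.

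The members and lists were chosen with earlier results of these data known. Genes named were the members, those that passed in each list, up to 3 further pathway genes with the smallest p, the first 2 markers of each list where measured, and the 5 genes most like Il1a and Il1b. Promoters came from RefSeq (GRCr8), which gave windows for 8 of the 9 listed genes. Alternatives were a replicate block, array weights, an intensity trend with robust variances, further quantile normalization, median centring, leaving out the dimmest 30% of genes, averaging or testing all probe sets, a minimum fold change of 1.2, leaving out each array, and an exact permutation test. Tables and plots were made with Python 3.11.15, pandas 2.3.3 and matplotlib 3.10.9.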

Additional observations from a re-analysis of the deposited data

Results flagged for a closer look

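The values of Il1rap, the accessory chain of the interleukin 1 receptor, had 1 array far from the other 3 in each group: normoosmotic replicate 1 at 8.32, where the others lay between 8.08 and 8.11, and hypoosmotic replicate 3 at 8.09, where the others lay between 7.93 and 7.95. In both groups the gap to the nearest array was 0.875 of the whole range, above Dixon's critical value at 95%. Chance gives such a gap in about 1 of 20 groups, and 28 groups of values were examined.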

How the results depend on the processing

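The fall of Il1a kept its direction and its side of the threshold in 17 of 18 alternatives, and against a minimum fold change of 1.2 its adjusted p was 0.0574 (limma). Among these 17 is the exact permutation test, where the unadjusted p of Il1a, 0.0286, is the smallest possible. Any gene whose groups do not overlap gives that value. The fall of Il1b kept its direction in all 18 and passed in 9. Il1rn, Il1r1, Il1rap and Il18 kept their direction and did not pass in any. The change of Il1r2, near background, turned to -0.025 after further quantile normalization and -0.048 after median centring, and with 1 array left out it ran from -0.09 to 0.063. The change of Casp1 ran from -0.33 to 0.029 with 1 array left out, and hypoosmotic replicate 4 was the array whose omission turned it. Il1r2 gave no value without the dimmest 30% of genes.

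Leaving out 1 array, the number of genes called was 468 to 1051 against 1026, of members 1 to 2, of interleukin 1 relatives 0 to 1, of signalling genes 0 to 2, of inflammasome and release genes 0 to 1, of response genes 1 to 2 and of acute phase genes 0 to 1. Fewer arrays were then tested. Against a fold change of 1.2 the counts were 83 genes, 0 members, 0 signalling, 0 inflammasome and 1 response gene. With an intensity trend they were 1 member (Il1a), 1 response gene and 1 acute phase gene (Cp). Cp was also the 1 acute phase gene with median centring and with the dimmest 30% of genes removed, which left 0 inflammasome genes because Aim2 was removed. Further quantile normalization left 1 signalling gene. Except where a reason is given, the cause was not tested.

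The replicate numbers were not taken to pair the arrays: deviations of same-numbered arrays correlated at 0.00608, 0.257, 0.116 and 0.0627, although normoosmotic arrays 2, 3 and 4, and not 1, correlated best with the same-numbered hypoosmotic array. With the replicate block 1029 genes and the same 2 members were called, with 1 relative (Il18bp) and 2 acute phase genes (A2m and Cp), and among signalling genes Nfkbie (higher) was gained and Chuk lost. The near-background level was 6.37 at the 99th percentile of odorant receptor genes and 3.04 with 1052 genes named Or in place of Olr, an alternative chosen after seeing the data. Il1r2 was the 1 member below 3.04, Il18 and Casp1 were also below 6.37, and 0 members were below 2.32, the 75th percentile.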
